A study of Arabidopsis thaliana with 6 samples.

Results

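CYP89A7 (AT1G64930), CYP89A6 (AT1G64940) and CYP89A5 (AT1G64950) are neighbouring cytochrome P450 genes that stand head to tail on chromosome 1 of Arabidopsis thaliana. All 3 were among the 708 entries of the authors' deposited table, which compared roots of the hb13 mutant with roots of the wild type. They were chosen from the values in that table, so their own changes are described here and not tested. The study sequenced polyadenylated RNA from roots of seedlings grown for 5 days on standard medium, in 3 libraries of wild-type Col-0, the usual laboratory accession, and 3 of the hb13 mutant, which the labels also place in ecotype Col-0. The mutant allele is not named in the labels, and no treatment was given to either genotype. HB13 (AT1G69780) encodes a homeodomain-leucine zipper transcription factor and was itself not listed. The list holds only entries at a q-value of at most 0.05, so absence does not show that the HB13 transcript was unchanged. The labels call the tissue whole root, whereas the protocol has roots cut about 0.5 cm from the tip.

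Cytochrome P450 enzymes are heme proteins, most of them anchored in the endoplasmic reticulum, that insert an oxygen atom into their substrates with electrons passed on by a reductase. Plants hold large P450 families that make and modify hormones, pigments and defence compounds, and many of the genes lie in tandem arrays of recent copies. The best known relative of the array is CYP89A9, which acts on chlorophyll breakdown products in senescing leaves. The RefSeq symbols place all 3 loci in subfamily CYP89A, although the product names of CYP89A7 and CYP89A6 read family 87.

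The array lies on the plus strand of chromosome 1. In the RefSeq annotation of TAIR10.1, which keeps the nuclear chromosomes of the TAIR10 build named in the submitters' processing notes, CYP89A7 spans chr1:24120723-24122776. CYP89A6 follows at chr1:24123789-24125514 and CYP89A5 at chr1:24127506-24129557. The gaps between them measure 1012 and 1991 bases. Each gene is annotated as 1 exon without introns and overlaps no other annotated gene. Coding lengths are 1536, 1536 and 1533 bases. CYP89A7 has an annotated 5' UTR of 203 bases and CYP89A5 one of 81, whereas CYP89A6 has none, so that its annotated start is the start codon.

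The copies are close in sequence, which bears on how 100-base single-end reads can be told apart. CYP89A6 and CYP89A5 were identical at 94.3% of 1533 aligned coding bases, and CYP89A7 was identical to each of them at 89.7% of 1530. All 3 shared the same base at 1332 of 1542 columns of their coding alignment (86.4%). Of the 198 columns without a gap where they differed, 117 (59.1%) fell at the third codon position of CYP89A7. A gene outside the array was closer still to CYP89A5. AT2G12190, a cytochrome P450 gene on chromosome 2, matched CYP89A5 at 96.9% of 1533 coding bases, CYP89A6 at 93.5% and CYP89A7 at 89.6%. AT2G12190 was not listed. CYP89A2 (AT1G64900), which stands before the array with a pair of glycosyltransferase genes between, matched the 3 loci at 83.1% to 84.4%.

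The 100-base coding stretch with the fewest differences among the 3 loci is shown to let the near identity be seen. It covers chr1:24121446-24121545 in CYP89A7, chr1:24124315-24124414 in CYP89A6, chr1:24128110-24128209 in CYP89A5 and, on the minus strand, chr2:4892723-4892822 in AT2G12190 (RefSeq TAIR10.1). Capitals mark the 7 positions at which the 4 genes do not all share a base, of which 5 separate the 3 loci of the array. Each is written 5' to 3' along its own coding strand.
CYP89A7: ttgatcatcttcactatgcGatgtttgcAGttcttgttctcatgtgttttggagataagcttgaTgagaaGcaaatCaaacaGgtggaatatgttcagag
CYP89A6: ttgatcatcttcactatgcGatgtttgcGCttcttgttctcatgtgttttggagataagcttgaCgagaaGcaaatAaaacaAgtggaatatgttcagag
CYP89A5: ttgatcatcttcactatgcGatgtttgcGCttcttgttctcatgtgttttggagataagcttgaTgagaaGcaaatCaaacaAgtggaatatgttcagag
AT2G12190: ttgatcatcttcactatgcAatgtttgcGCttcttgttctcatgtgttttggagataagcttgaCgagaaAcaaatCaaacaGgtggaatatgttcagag

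The stretch with the most differences is shown for contrast, at chr1:24121840-24121939, chr1:24124709-24124808 and chr1:24128504-24128603 in the array and chr2:4892329-4892428 on the minus strand in AT2G12190. Here the 3 loci were not all alike at 24 positions, again in capitals. CYP89A7 differed from CYP89A5 at 20 positions and CYP89A6 at 10, whereas AT2G12190 differed from CYP89A5 at 1.
CYP89A7: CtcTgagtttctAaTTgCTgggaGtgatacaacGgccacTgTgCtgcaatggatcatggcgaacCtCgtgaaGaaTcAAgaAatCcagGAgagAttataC
CYP89A6: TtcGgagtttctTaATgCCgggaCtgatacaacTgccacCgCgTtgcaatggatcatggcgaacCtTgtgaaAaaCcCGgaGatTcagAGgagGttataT
CYP89A5: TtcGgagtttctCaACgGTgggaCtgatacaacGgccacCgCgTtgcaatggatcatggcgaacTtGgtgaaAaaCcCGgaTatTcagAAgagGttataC
AT2G12190: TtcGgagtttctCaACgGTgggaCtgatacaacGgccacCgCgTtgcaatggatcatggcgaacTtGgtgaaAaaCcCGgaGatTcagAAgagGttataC

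**Figure D1:**
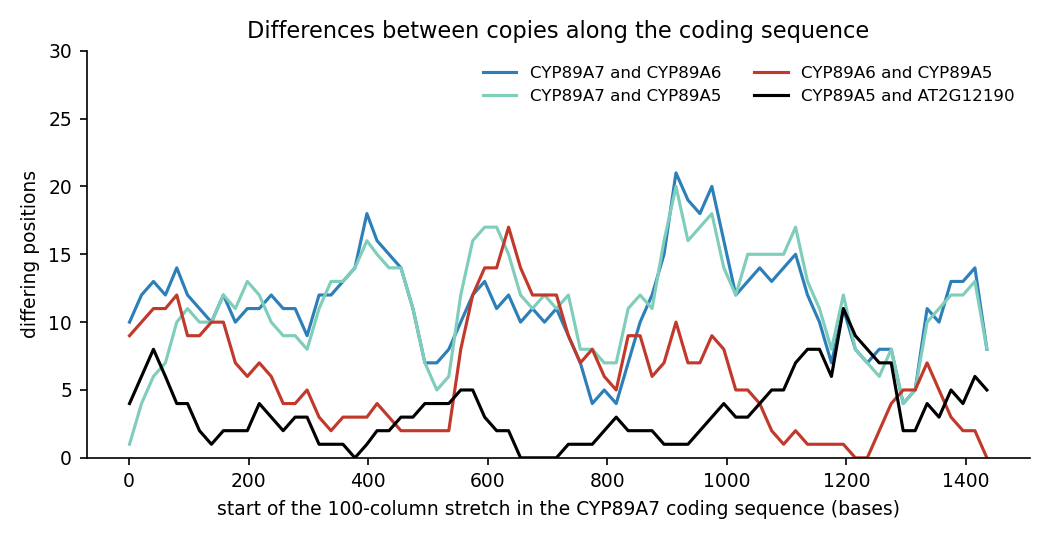
Number of differing positions, gap columns included, between pairs of copies in stretches of 100 alignment columns (vertical axis) against the position where the stretch starts in the CYP89A7 coding sequence in bases (horizontal axis). CYP89A5 and AT2G12190 (black) differ at 0 to 11 positions, while CYP89A7 differs from CYP89A6 (blue) at 4 to 21 positions in the stretches plotted.

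Every 100-base stretch of the 3 transcripts was then compared with all other places in the genome, on either strand. In CYP89A7, 67 of 1955 stretches (3.43%) occurred elsewhere with at most 2 mismatches and no gap, and 3 occurred without a mismatch. In CYP89A6 these counts were 379 of 1627 (23.3%) and 44. In CYP89A5 they were 969 of 1953 (49.6%) and 161. The 3 transcripts therefore ranked from CYP89A7, which was mostly distinct at read length, to CYP89A5, which was the least distinct. For CYP89A5, 588 of the stretches lay on 1 gap-free alignment with AT2G12190 and 39 on another, 361 matched CYP89A6 and 17 matched CYP89A7, and a stretch could match more than 1 gene. How reads that fit several copies were assigned is not given in the sources used here. The separate values of CYP89A5 and CYP89A6 are uncertain to that extent, and the part of shared reads in their changes was not tested.

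All 3 loci were higher in the hb13 mutant. In the authors' deposited table CYP89A7 stood at 14.2 in wild-type roots and at 22.5 in hb13 roots, on the authors' unnamed expression scale, and its q-value was 0.00246. This was a rise of 58.4%, or 0.66 on the log2 scale. For CYP89A6 the authors' deposited table held 1.91 for wild-type and 3.51 for hb13 roots (q = 0.0180). Its ratio was the largest of the array, a log2 of 0.88 or 83.8% above the wild type. For CYP89A5 the authors' deposited table held 29.5 for wild-type and 39.4 for hb13 roots (q = 0.0353). Its ratio was the smallest, a log2 of 0.42 or 33.7% above the wild type. With each genotype column divided by its median over the listed entries, the log2 ratios of CYP89A7, CYP89A6 and CYP89A5 were 0.44, 0.65 and 0.19. This division lowers every ratio by the same 0.23, so it could not change their order. Each value is the authors' own for a whole genotype. The table gives no value per library, so no SD, interval or test can be set beside these ratios, and the read depth behind them is unknown.

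**Figure D2:**
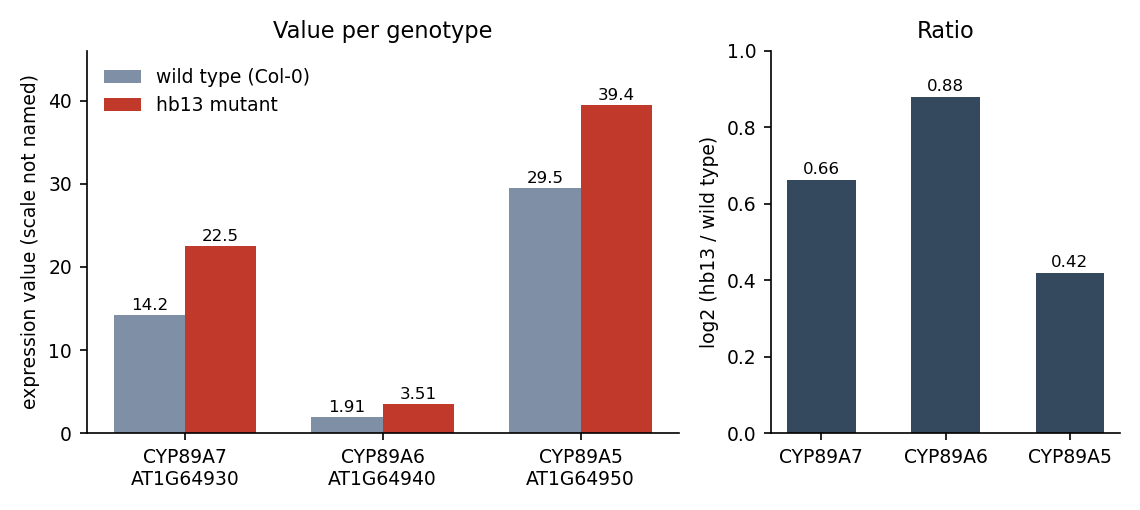
Expression values of the 3 loci in the authors' deposited table for wild type (grey) and hb13 mutant (red) on the left, on a scale the file does not name, and the log2 of mutant over wild type on the right. All 3 loci are higher in the mutant, CYP89A6 has the lowest values and the largest ratio (0.88), and CYP89A5 has the highest values and the smallest ratio (0.42). There are no error bars because the table has 1 value per genotype.

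The order of the ratios was the reverse of the order of the levels. CYP89A5 had the highest value in both genotypes and CYP89A6 the lowest, while the log2 ratio was highest in CYP89A6, 0.22 above CYP89A7, and CYP89A7 was 0.24 above CYP89A5. The log2 ratios thus spanned 0.46, a factor of 1.38 between the extremes. On the linear scale the order turned round. The difference of mutant minus wild type was 9.93 in CYP89A5, 8.29 in CYP89A7 and 1.60 in CYP89A6. Whether the ratios differ beyond the spread between replicates cannot be told from 1 value per genotype, and the larger ratio of CYP89A6 rests on the lowest values. With a pseudocount of 1, the log2 ratios of CYP89A6 and CYP89A7 both came to 0.63.

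Summed over the array, the expression value came to 45.6 in wild-type and 65.4 in hb13 roots, a ratio of 1.43 and a log2 of 0.52. With each genotype column divided by its median over the listed entries, the log2 of the sum was 0.29. How reads were divided among the 3 loci or shared with AT2G12190 could also bear on the sum and was not tested. CYP89A5 made up 64.7% of the summed value in wild-type and 60.2% in hb13 roots. The share of CYP89A7 was 31.2% in wild-type and 34.4% in hb13 roots, and that of CYP89A6 was 4.18% and 5.36%. By these values CYP89A5 led the array in both genotypes, but the part of reads shared with other copies in its value was not tested. Since the scale is not named, the shares were also computed with each value multiplied by exon length. The share of CYP89A5 was then 65.1% in wild-type and 60.7% in hb13 roots. In bulk root samples, a difference in the number of cells of a type and a difference in RNA per cell cannot be told apart.

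Set against the other listed entries, the ratios of the array ran from above the median of the higher entries to near their lower end. Of the 708 entries, 394 (55.6%) were higher in the mutant, and the direction of the 3 loci is part of what chose them. CYP89A6 stood 119th by log2 ratio among the 394 higher entries, CYP89A7 206th and CYP89A5 378th. The median log2 ratio of the higher entries was 0.68, so that CYP89A7 lay next to the middle and CYP89A5 near the lower end. Entries with wild-type values within a factor of 2 of each locus gave a closer view. Near CYP89A6, 66 entries other than the array were higher, with a median log2 ratio of 1.05, and 14 of them had a smaller ratio than CYP89A6. Near CYP89A7, 152 were higher with a median of 0.66, and 77 had a smaller ratio. Near CYP89A5, 124 were higher with a median of 0.59, and 3 had a smaller ratio. Read against entries of like level, CYP89A6 was thus below the middle despite having the largest ratio of the array. All entries had already been selected on a q-value of at most 0.05, which at low values generally takes a larger ratio.

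**Figure D3:**
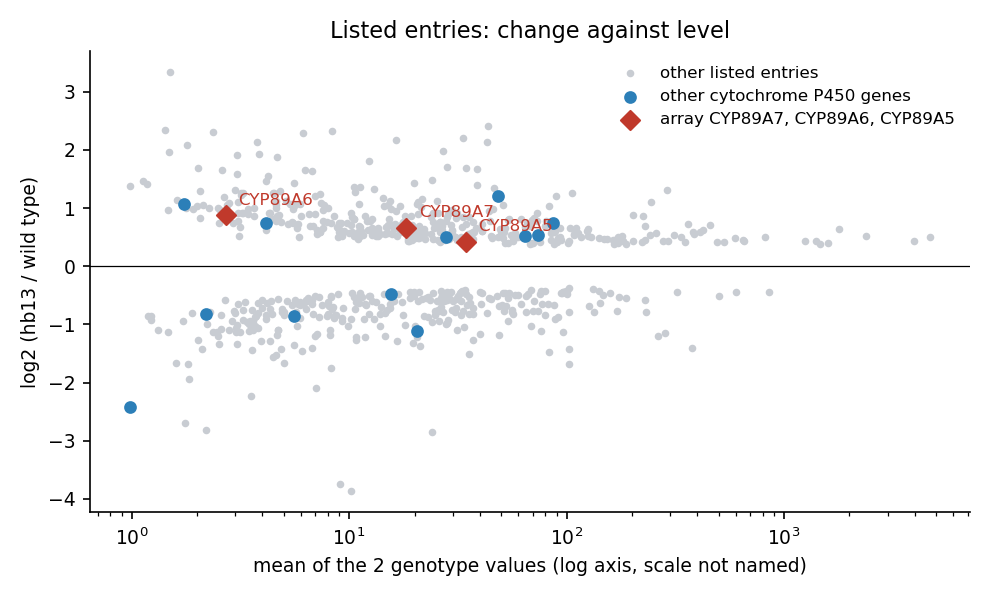
Log2 of mutant over wild type (vertical axis) against the mean of both genotype values (horizontal log axis, scale not named) for the listed entries with a ratio. The 3 loci of the array (red diamonds) lie among the higher entries at log2 ratios of 0.42 to 0.88, and other cytochrome P450 genes (blue) lie on both sides of 0.

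The loci also differed in the q-values that the authors' deposited table gives. CYP89A7 was among the 342 entries that share the smallest one. CYP89A6 had 501 entries with a smaller q-value and CYP89A5 had 615. Only 87 of the 708 entries (12.3%) had a larger q-value than CYP89A5. Under a stricter q-value of 0.01, CYP89A7 alone of the array would stay on the list.

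The other CYP89A genes were not listed. Of 7 genes of the subfamily or close to it, the 3 of the array were chosen for being listed, while CYP89A2, CYP89A3 (AT5G61320), CYP89A9 (AT3G03470) and AT2G12190 were absent from the list. Of the 27444 annotated nuclear protein-coding genes, expressed in roots or not, 684 (2.49%) were listed, so absence is the usual case for any gene. Absence does not show that their transcripts were unchanged, since the table holds only entries at a q-value of at most 0.05. CYP89A9 and CYP89A3 are the more distant copies, at 60.4% to 61.2% and 73.6% to 74.8% coding identity to the 3 loci. None of 10 genes of chlorophyll breakdown, the pathway of CYP89A9, and none of 7 genes for the reductases and cytochrome b5 proteins that pass electrons to P450 enzymes was listed. At a background of 2.49%, lists this short would mostly hold no listed gene, and nothing is read from these counts. Markers of root cell types (9 genes) and of green tissue (7 genes) were also not listed, so the tissue label could not be checked against the table.

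Around the array, 1 of the 10 annotated genes within 5 positions on either side was listed, against 2.49% of annotated protein-coding genes. The sets are not quite alike, since the 10 include the long non-coding RNA gene AT1G08733. A count of 1 gene is also too few to read as a difference. AT1G64890, which encodes a protein of the major facilitator superfamily of transporters, stands before CYP89A2 on the same strand. The authors' deposited table put it at 9.002 in wild-type and 12.8 in hb13 roots (q = 0.0383), and its log2 ratio was 0.51. The glycosyltransferase genes AT1G64910 and AT1G64920 next to the array were not listed, nor was HEB1 (AT1G64960), whose annotated start lies 278 bases beyond the end of CYP89A5.

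**Figure D4:**
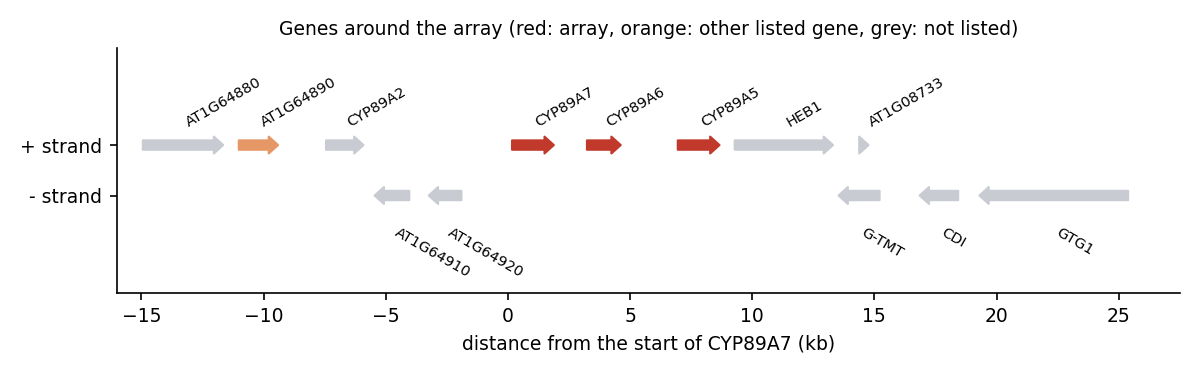
Annotated genes around the array, drawn as arrows in the direction of transcription at their distance from the start of CYP89A7 in kb (horizontal axis), with the plus strand above and the minus strand below. The 3 loci of the array (red) follow each other on the plus strand, AT1G64890 (orange) is the other listed gene, and the other 9 genes (grey) are not listed.

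Of 249 protein-coding genes annotated as cytochrome P450, 15 (6.02%) were listed, 10 higher and 5 lower in the mutant. The 15 include the 3 loci chosen for being listed, and 2.49% of all annotated nuclear protein-coding genes were listed. Without the array the split was 7 higher and 5 lower, or 58.3% higher, close to the 55.6% over all entries. The largest ratio was that of CYP83B1, which acts on indole-3-acetaldoxime at the branch between indole glucosinolates and auxin. The authors' deposited table put CYP83B1 at 29.3 in wild-type and 67.8 in hb13 roots (log2 ratio 1.21, q = 0.00246). CYP79B2, which makes that aldoxime from tryptophan, went from 3.09 to 5.18 in the authors' deposited table (log2 ratio 0.74, q = 0.0142). CYP79F2, an enzyme of aliphatic glucosinolate synthesis, went from 1.12 to 2.35 in the authors' deposited table (log2 ratio 1.07, q = 0.0168). CYP81F3, which modifies indole glucosinolates, went from 52.8 to 76.2 in the authors' deposited table (log2 ratio 0.53, q = 0.00645). The other higher genes outside the array were CYP87A2, CYP82F1 and CYP718, at log2 ratios of 0.75, 0.54 and 0.50.

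The 5 lower P450 genes ranged more widely. CYP82C4, which hydroxylates the coumarin fraxetin under iron deficiency, went from 1.67 to 0.310 in the authors' deposited table (log2 ratio -2.43, q = 0.0244). TT7, the flavonoid 3'-hydroxylase, went from 28.01 to 13.02 in the authors' deposited table (log2 ratio -1.11, q = 0.00246). CYP702A5, CYP71B26 and CYP71B29 had log2 ratios of -0.85, -0.81 and -0.47. Among the 15, CYP89A6 ranked 3rd from the top, CYP89A7 6th and CYP89A5 10th, the smallest ratio of the higher genes. By annotated gene order, the array was the 1 place where listed P450 genes were direct neighbours.

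**Figure D5:**
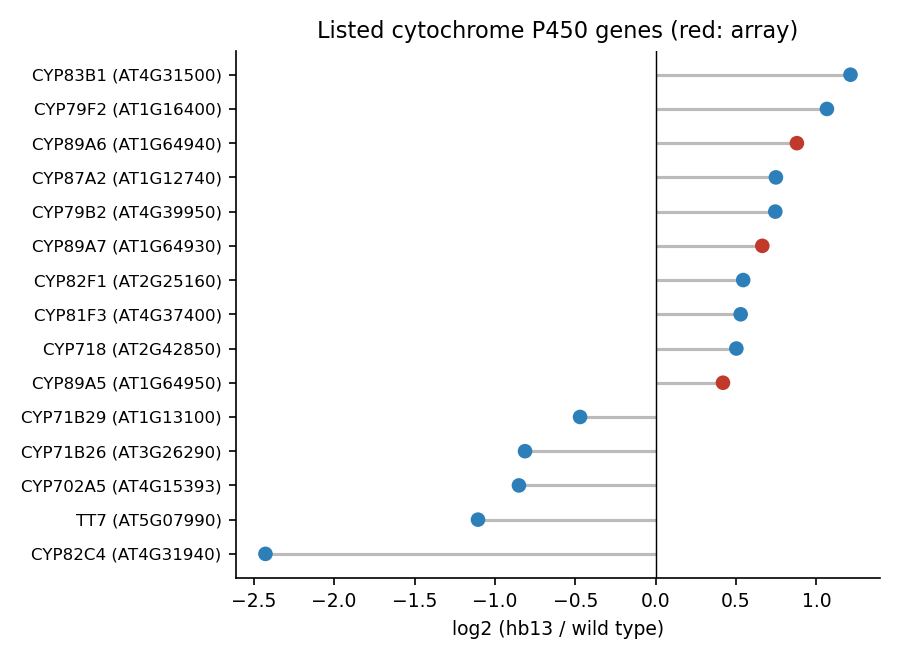
Log2 of mutant over wild type (horizontal axis) for the 15 listed cytochrome P450 genes in descending order, with the array in red and the others in blue. The higher genes run from CYP83B1 (1.21) to CYP89A5 (0.42) and the lower ones from CYP71B29 (-0.47) to CYP82C4 (-2.43).

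The bases before each gene are shown because the 3 loci stood higher together in a mutant of a transcription factor. Homeodomain-leucine zipper factors of class I are known to bind the pseudopalindrome CAATNATTG in vitro. The 250 bases before each annotated start, at chr1:24120473-24120722, chr1:24123539-24123788 and chr1:24127256-24127505 on the plus strand (RefSeq TAIR10.1), were searched on both strands for it and for its inner core AATNATT, which lies within it. Capitals mark matches to the core.
CYP89A7: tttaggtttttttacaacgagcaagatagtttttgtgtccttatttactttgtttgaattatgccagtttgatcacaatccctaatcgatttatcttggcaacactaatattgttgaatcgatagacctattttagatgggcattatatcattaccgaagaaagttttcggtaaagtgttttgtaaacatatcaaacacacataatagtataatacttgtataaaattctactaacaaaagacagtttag
CYP89A6: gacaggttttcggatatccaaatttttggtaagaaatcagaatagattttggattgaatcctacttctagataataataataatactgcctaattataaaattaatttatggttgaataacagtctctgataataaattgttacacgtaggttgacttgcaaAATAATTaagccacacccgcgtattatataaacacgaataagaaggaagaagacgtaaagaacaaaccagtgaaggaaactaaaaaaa
CYP89A5: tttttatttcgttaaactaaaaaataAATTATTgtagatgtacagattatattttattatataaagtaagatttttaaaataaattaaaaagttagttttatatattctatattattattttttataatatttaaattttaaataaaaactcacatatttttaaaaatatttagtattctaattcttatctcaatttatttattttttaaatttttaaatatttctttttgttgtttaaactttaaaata

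None of the 3 windows held CAATNATTG, which was found in 252 of 27443 such windows of protein-coding genes (0.918%). The core AATNATT occurred 1 time before CYP89A6, starting 88 bases before its annotated start, and 1 time before CYP89A5, starting 224 bases before. It was not in the window of CYP89A7. The core was found in 30.5% of all windows. G and C made up 73 of the 250 bases before CYP89A7, 74 of those before CYP89A6 and 25 of those before CYP89A5, whose window is mostly A and T. These matches describe the letters of the windows and say nothing of binding. For CYP89A6 the window ends at the start codon, and any leader of its transcript would lie inside it.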

How the data were processed

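RNA was measured in 3 wild-type and 3 hb13 libraries, grouped by their titles, and 1 table of the authors' comparison was used. The 2 expression columns deposited by the authors hold a normalized signal, 1 value per gene and genotype, whose scale is not named. The log2 fold change and the q-value were also deposited by the authors, and the log2 of mutant over wild type computed here differed from theirs by at most 1e-05. The submitters' processing notes name TopHat2 2.0.13, Cufflinks 2.1.1, Cuffdiff and the TAIR10 build, without their settings. Values per library are not given and depth per library is unknown, so no interval could be given.

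No test between genotypes was possible, and everything is description. The loci and gene lists were chosen with earlier results of these data known. Genes named are the 3 loci, their relatives, 5 annotated genes on either side and every listed P450 gene. P450 genes were taken from RefSeq product names (reductases left out) and symbols. Coding sequences were aligned with MAFFT 7.526. Stretches of 100 bases were compared with the TAIR10.1 genome from shared runs of 31 bases, a search that was checked on simulated data. Alternatives were pseudocounts, column medians, thresholds and leaving loci out of the sum. Python 3.11.15, pandas 2.3.3, NumPy 2.4.6 and matplotlib 3.10.9 were used.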

Additional observations from a re-analysis of the deposited data

How the results depend on the processing

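No paired analysis was possible because the deposited values are 1 per genotype, and for the same reason no replicate could be left out. No alternative reversed a direction in the array, but of these settings only the division by column medians could have done so. The direction of the 3 loci is also part of what chose them. A pseudocount of 1 gave log2 ratios of 0.63 for CYP89A7, 0.63 for CYP89A6 and 0.41 for CYP89A5, and a span of 0.23 in place of 0.46. A pseudocount of 0.1 gave 0.85 for CYP89A6. Dividing each column by its median over the listed entries lowers every ratio by 0.23 by construction, to 0.44, 0.65 and 0.19, and that of the sum to 0.29. Those medians come from entries selected for change, 55.6% of them higher. The log2 ratio of the sum was 0.45 without CYP89A7, 0.50 without CYP89A6 and 0.69 without CYP89A5, and 0.52 with loci weighted by exon length, which was chosen after seeing the data. The 10 higher and 5 lower P450 genes became 6 and 2 at a q-value under 0.01, and 2 and 2 at an absolute log2 ratio of at least 1, which can only remove genes. At a mean value of at least 5 they were 7 and 3. Values per library are not given and depth is unknown, so the error of each value is unknown too, including those of CYP89A6, the lowest of the array.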

Other observations

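In the order of annotated protein-coding genes, 46 runs of at least 2 consecutive genes were listed, and 29 of the 43 runs of exactly 2 had both genes on the same side. Over all entries 55.6% were higher and 44.4% lower, so many unrelated pairs would also share a side, and the count was not tested. There were 3 runs of 3 genes and none longer. The array was one of them. The others were IGMT1, IGMT3 and IGMT2, indole glucosinolate methyltransferase genes, all higher in the mutant, and MSRB5, MSRB6 and KEA3, all lower, the first pair of which encode methionine sulfoxide reductases. All 3 runs of 3 thus kept to 1 direction, a count that was made after the array had been seen. It includes the array itself, whose direction is part of what chose it.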
